A study of Mus musculus with 7 samples.

Results

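Collagen genes were examined in optic nerves of mice in which Fasn, the gene of fatty acid synthase, was inactivated in the oligodendrocyte (OL) lineage. Members were the rows whose symbol had the form Col, a number, a and a number, and whose FPKM (fragments per kilobase, a level scaled for gene length and sequencing depth) was at least 0.5 in at least 3 of the 7 samples. Of 44 collagen genes named in the deposited table of 22880 genes, 38 met this minimum and are described here, among 13866 genes that met it and were tested. They divided into 10 fibrillar collagens, 6 type IV collagens of basement membranes and 22 other collagens.

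Controls (CT, n = 4 mice) carried FASN lox/lox, the floxed allele on both chromosomes, without Cre. Conditional mutants (cMU, n = 3 mice) were olig2cre FASN lox/lox, and so carried the same floxed alleles together with Cre recombinase driven by Olig2 regulatory elements. For its developmental studies the paper's methods name both Fasn lox/lox and Fasn lox/wt mice as controls. All mice had a C57Bl/6 strain background and were taken at P14, with both optic nerves of each mouse making up a sample. The floxed allele came from 129X1/SvJ, had passed through 129X1/SvJ, C57BL/6 and DBA crosses and was then backcrossed to C57Bl/6 for at least 3 generations, so some flanking sequence of other strains may remain in both groups. Cre in these mice acts in Olig2-expressing cells, and the RNA came from the whole dissected nerve. The comparison asks how the RNA of collagen genes compared between the genotypes, and which cells of the nerve made it was not measured.

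Collagens are triple helices of 3 alpha chains, each chain from its own gene or from copies of the same gene. Fibrillar collagens, chiefly types I and III with smaller amounts of V and XI, pack into the tensile fibers of connective tissue, while type IV chains join into the sheet-like network of basement membranes around vessels and under the glial limiting membrane. The remaining types include beaded filaments (type VI), collagens that sit on fibrils (the FACITs, such as IX, XII and XIV), network-forming, anchoring, transmembrane and endostatin-bearing types. In the optic nerve, fibroblasts of the meningeal sheath and of the perivascular space are known collagen producers, and endothelial and mural cells contribute basement membrane.

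The targeted gene behaved as its labels state. Fasn was at 210, 169, 211 and 228 FPKM in CT 1 to 4 and at 69.3, 50.5 and 49.0 FPKM in cMU 1 to 3, without overlap, and fell by 1.86 on the log2 scale (SE 0.14, adjusted p = 0.00312 by limma with Benjamini-Hochberg adjustment over all genes tested). Depth, recovered from the steps of the deposited values, lay between 27457173 and 43460412 reads a sample. Over all genes, 363 (2.62%) passed an adjusted p of 0.05, 175 higher and 188 lower in cMU, but this split moved with the scaling, to 138 and 237 with TMM factors and 117 and 283 after centring each sample on its median. Some samples stood apart in ways that touch the collagens or their neighbours. cMU 1 held the highest of the 7 values in 32.7% of all genes tested and CT 2 the lowest in 26.7%. CT 2 also held a summed red blood cell marker level of 12727 FPKM against 2851 to 5595 in the other samples, and cMU 2 held 99.6 FPKM of skeletal muscle markers against 3.43 to 7.30 FPKM elsewhere. The results below are therefore given with and without these samples where they rest on them.

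Most collagen RNA levels were higher in cMU, and few of the differences exceeded the spread between mice. The mean was higher in cMU for 35 of the 38 genes, where 60.1% of all genes tested had a log2 fold change above 0. The median log2 fold change was 0.40 for the collagens and 0.05 for all genes tested. Only Col2a1 passed the threshold, against a background of 1.26% of all genes called higher in cMU. The level lay above every control in every mutant for 5 genes (Col2a1, Col12a1, Col14a1, Col4a4 and Col23a1; 12.9% of all genes) and below every control in every mutant for 1 gene, Col11a2 (8.26% of all genes). At an unadjusted p of 0.05, 11 collagens were higher and 1 was lower, beside 15.9% and 8.5% of all genes. Since the nerve was taken whole, more cells of a type and more RNA in each cell cannot be told apart in any of these values.

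**Figure D1:**
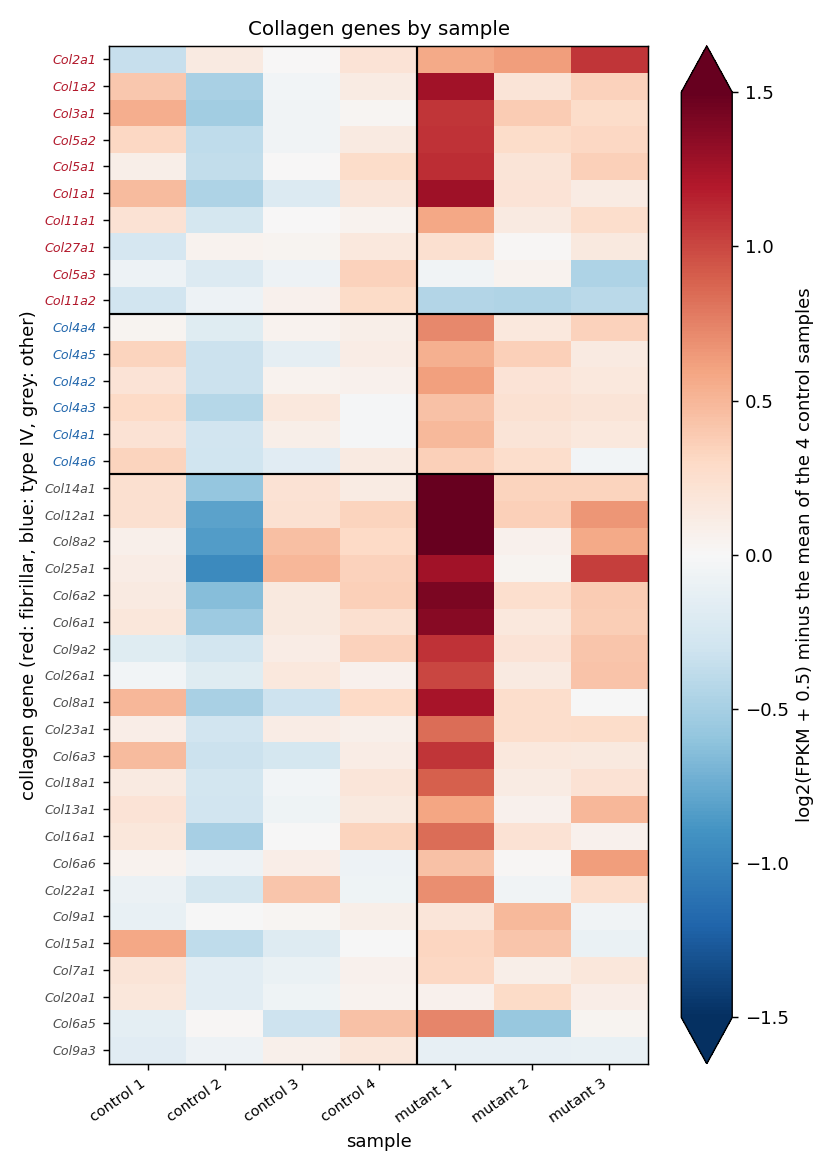
Heat map of the 38 collagen genes (rows, by class) in the 7 samples (columns); the color is log2(FPKM + 0.5) minus the mean of the 4 control samples, and arrows on the color bar mark values beyond the scale. cMU 1 is the reddest column, CT 2 the bluest, and Col11a2 is blue in all 3 mutant samples.

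A pair of samples held most of the extremes. cMU 1 held the highest of the 7 values in 30 of the 38 genes, CT 2 held the lowest in 30, and both were true of 28 genes, where both were true of 15.7% of all genes tested. Relative to the control mean, the median over the 38 genes on the log2 scale was 0.17, -0.29, 0.02 and 0.13 in CT 1 to 4 and 0.73, 0.19 and 0.23 in cMU 1 to 3. The values of cMU 2 and cMU 3 thus lay just above the highest control, and that of cMU 1 far above it. Without cMU 1 the median log2 fold change of the collagens was 0.22, 34 of 38 were above 0 (55.5% of all genes) and none passed the threshold, beside 0.743% of all genes called higher. At an unadjusted p of 0.05, 2 were then higher and 1 lower, beside 10.8% and 7.19% of all genes. Without CT 2 the median was 0.33, 35 were above 0 (59.6% of all genes) and again none passed, with 3 higher and 1 lower at an unadjusted p of 0.05, beside 11.3% and 7.21% of all genes. Log2 fold changes of single genes then shrank from 0.96 to 0.70 in Col12a1, from 0.63 to 0.45 in Col6a1 and from 0.78 to 0.46 in Col25a1. That of Col2a1 went the other way, from 0.75 to 0.80. Without cMU 2, the sample with muscle RNA, the median was 0.54 and Col2a1 and Col26a1 passed, beside 4.06% of all genes.

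Samples that shared a replicate number had correlated deviations across genes (0.168, 0.409 and 0.270 for numbers 1 to 3). However, cMU 1 correlated more with CT 4 (0.205) than with CT 1. No label states a pairing, and it was taken from these same values. A fit with the replicate number as a block called many more collagens. In that fit 13 collagens passed, all of them higher in cMU, beside 6.42% of all genes called higher: Col1a1, Col1a2, Col2a1, Col3a1, Col5a1 and Col5a2 among the fibrillar genes, and Col6a1, Col6a2, Col6a3, Col8a1, Col12a1, Col18a1 and Col25a1 among the others. No type IV gene passed. CT 4 has no mutant partner and adds nothing to these fold changes. Of the 13 genes, 2 (Col2a1 and Col12a1) had groups that did not overlap. The blocked count was 16 without cMU 1 (15 of them higher, beside 6.96% of all genes called higher) and 1 without CT 2 (beside 0.591%), where Col2a1 alone passed. Either omission leaves only 2 pairs, yet calls over all genes dropped only without CT 2. The block also leaves few samples from which to estimate the spread. The adjusted p-values with the block given below share these limits and are no independent support. That of Col1a2, by limma with the block, was 0.0251 with all samples and 0.066 without CT 2. Without CT 2 the blocked collagen median was 0.46, against 0.45 with all samples, Col1a2 was at 0.62, against 0.64, and Col3a1 at 0.42, against 0.58. On the recovered reads edgeR called none at an adjusted p of 0.05 (2.88% of all genes) and 17 higher and 1 lower at an unadjusted p of 0.05 (13.9% and 11.7% of all genes), and DESeq2 called 5 collagens higher (6.63% of all genes) and Col11a2 lower (5.5%).

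Types I and III were the most abundant collagens. Together Col1a1, Col1a2 and Col3a1 gave 58.4%, 49.0%, 49.4% and 50.4% of the summed collagen FPKM in CT 1 to 4 and 57.8%, 53.9% and 52.9% in cMU 1 to 3. These shares overlapped between the groups. The share of type IV chains was 9.49% ± 0.53 (SD, n = 4) in CT and 8.45% ± 1.56 (SD, n = 3) in cMU, and that of type VI was 10.4% ± 1.17 and 11.5% ± 1.46, both with overlapping groups. The summed level of all 38 genes was 1753, 1067, 1412 and 1572 FPKM in the controls and 2933, 1646 and 1686 FPKM in the mutants, so that CT 1 lay above cMU 2 and cMU 3.

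The chains of type I collagen, the main protein of fibrous tissue, followed this order closely. Col1a2 was at 413, 221, 302 and 338 FPKM in CT and at 747, 356 and 396 FPKM in cMU, a 1.57-fold higher mean (log2 fold change 0.60, SE 0.27, adjusted p = 0.213; 0.0251 with the block). Col1a1 was at 230, 120, 143 and 188 FPKM in CT and 399, 191 and 180 FPKM in cMU (log2 fold change 0.54, SE 0.30, adjusted p = 0.306; 0.0256 with the block). For both genes CT 1 lay above cMU 2 and cMU 3, and the fold changes were 0.27 and 0.17 without cMU 1. Col3a1, whose homotrimer is laid down with type I in pliable tissues and vessel walls, was at 380, 181, 252 and 267 FPKM in CT and 548, 340 and 315 FPKM in cMU (0.57, SE 0.25, adjusted p = 0.206; 0.0338 with the block). CT 1 again exceeded cMU 2 and cMU 3.

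Type V collagen sits in the core of type I fibrils and is known to set their diameter. Col5a1 was at 16.6, 11.9, 15.6 and 19.0 FPKM in CT and 34.1, 17.9 and 20.04 FPKM in cMU (log2 fold change 0.55, SE 0.22, adjusted p = 0.173; 0.0335 with the block). Col5a2 was at 33.6, 20.6, 26.1 and 29.6 FPKM in CT and 57.9, 32.8 and 33.6 FPKM in cMU (0.56, SE 0.22, adjusted p = 0.163; 0.0251 with the block). Here cMU 2 lay inside the control range for both genes. The third type V chain did not share the direction: Col5a3 was at 6.09, 5.50, 6.09 and 8.32 FPKM in CT and 6.17, 6.68 and 4.54 FPKM in cMU (-0.15, SE 0.16, adjusted p = 0.594).

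Col2a1 and Col11a2, both known best as cartilage fibril genes, stood at opposite ends of the fibrillar class. Col2a1 was at 6.02, 8.55, 7.84 and 9.03 FPKM in CT and 11.8, 12.2 and 16.9 FPKM in cMU, with no overlap and its highest value in cMU 3 rather than cMU 1. It rose 1.73-fold (log2 fold change 0.75, SE 0.16, adjusted p = 0.048). Its fold change stayed between 0.59 and 0.85 when any sample was left out, but its adjusted p then ran from 0.0448 to 0.135, below 0.05 only without cMU 2, and it was 0.0576 without cMU 1. It was also 0.0556 with TMM factors and 0.0514 by edgeR on the recovered reads, against 0.0013 by DESeq2. Col11a2 was at 25.0, 29.1, 31.97 and 37.5 FPKM in CT and 22.4, 22.1 and 23.1 FPKM in cMU. The 3 mutant samples lay close together under the lowest control (log2 fold change -0.43, SE 0.12, adjusted p = 0.0837; 0.0579 with the block, 0.0584 by edgeR and 0.00375 by DESeq2).

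Of the last fibrillar genes, Col11a1, the partner chain of Col11a2 in type XI collagen, had means of 9.81 ± 1.41 FPKM in CT and 12.5 ± 2.11 FPKM in cMU (log2 fold change 0.33, SE 0.14, adjusted p = 0.184), and Col27a1 had a fold change of 0.14 (SE 0.13, adjusted p = 0.554). In all, 8 of the 10 fibrillar genes were higher in cMU, with a class median of 0.54. Their summed level was 1124, 608, 797 and 909 FPKM in CT and 1844, 991 and 1004 FPKM in cMU.

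**Figure D2:**
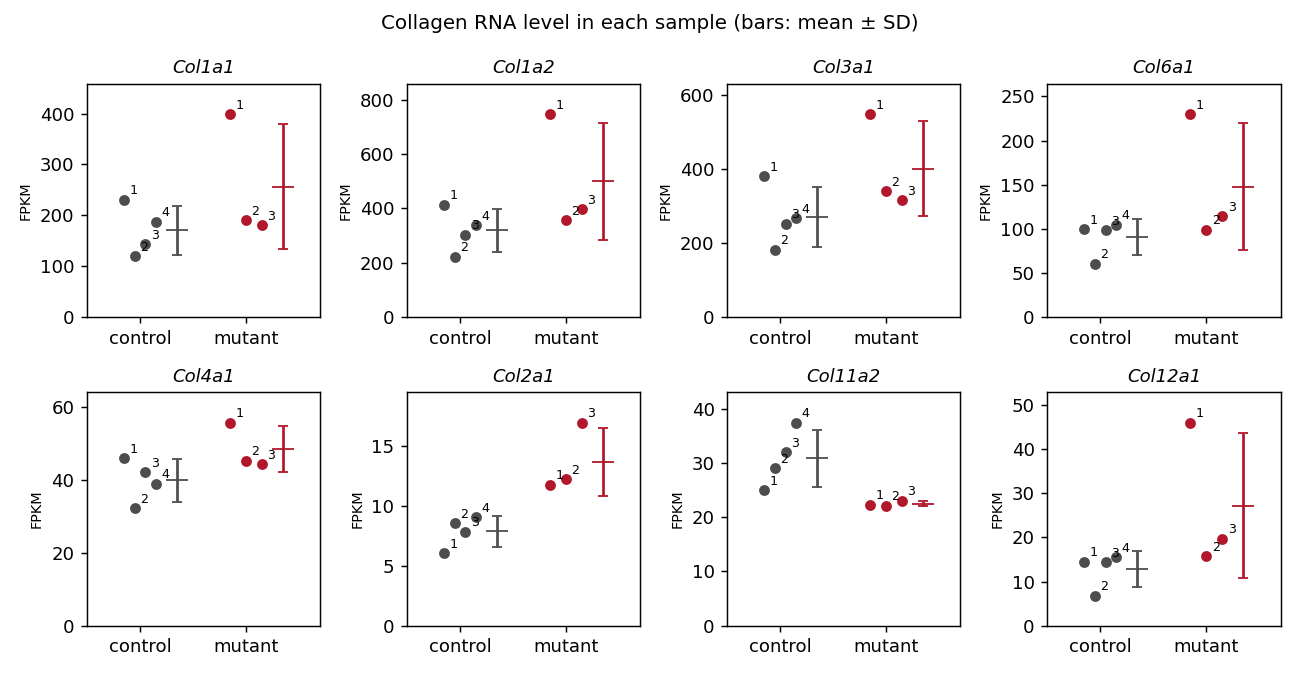
FPKM of 8 collagen genes in each sample (points, numbered by replicate, gray for control and red for mutant) with the mean ± SD of each group beside them. In Col1a1, Col1a2, Col3a1 and Col6a1 the mutant samples other than cMU 1 lie within the control range or near it, while all mutant points of Col2a1 lie above the controls and all those of Col11a2 below.

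The bases just before the start of 3 fibrillar genes are shown, since these genes differ in direction and level and their promoters differ in make-up. They are from RefSeq (GRCm38.p6), which had a promoter entry for 29 of the 38 genes, and each run gives the 100 bases before the RefSeq start, 5′ to 3′ on the gene's strand, with the letters GGGCGG, a core to which Sp1-type factors are known to bind, in capitals on either strand. Col3a1 is at chr1:45311438-45311537, Col5a1 at chr2:27886325-27886424 and Col11a2 at chr17:34039038-34039137, all on the plus strand. The RefSeq start of Col11a2 lies 299 bases upstream of its start in the deposited table, and those of the other genes are the same in both.
Col3a1: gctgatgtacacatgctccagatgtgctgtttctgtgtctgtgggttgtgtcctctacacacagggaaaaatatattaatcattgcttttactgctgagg
Col5a1: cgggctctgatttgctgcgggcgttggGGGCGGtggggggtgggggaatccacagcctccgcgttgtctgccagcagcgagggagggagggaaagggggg
Col11a2: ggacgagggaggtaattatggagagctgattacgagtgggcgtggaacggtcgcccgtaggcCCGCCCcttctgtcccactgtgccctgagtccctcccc
Col5a1, with a higher mean in cMU, and Col11a2, with a lower one, both hold the letters, and Col3a1 does not. Among the 29 genes with an entry, 18 hold GGGCGG in this window. This is a larger share than the 24.7% of 32851 windows of the same length over all RefSeq entries, which include genes not tested here. The median GC content of the genes was 56.5% for the 38 collagens and 50.8% for all genes tested, and its part in this share was not tested. CCAAT was found in 2 of the 29 (18.9% of all windows) and TATAAA in 0 (5.56%), each searched on both strands. A match of letters is a description and does not show that a factor binds there.

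The type IV class had the lowest median log2 fold change of the 3 classes, and none of its genes passed the threshold. Without cMU 1 the medians of type IV, fibrillar and other collagens were 0.20, 0.24 and 0.24, and the difference between classes was not tested. All 6 had a higher mean in cMU, with log2 fold changes from 0.19 to 0.41 and a class median of 0.31. Col4a1 and Col4a2, whose chains form the network common to nearly all basement membranes, were the most abundant. Col4a1 was at 46.1, 32.3, 42.1 and 39.0 FPKM in CT and 55.7, 45.2 and 44.3 FPKM in cMU (log2 fold change 0.28, SE 0.13, adjusted p = 0.209). Col4a2 was at 58.4, 40.4, 52.8 and 53.0 FPKM in CT and 77.8, 58.6 and 56.8 FPKM in cMU (0.33, SE 0.14, adjusted p = 0.2). For each gene at least 1 mutant value lay below CT 1.

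The remaining type IV chains, of which alpha3, alpha4 and alpha5 are the chains affected in Alport syndrome, spanned a wide range of levels. Col4a5 was at 39.4, 24.9, 28.4 and 33.7 FPKM in CT and 45.2, 40.0 and 34.2 FPKM in cMU (log2 fold change 0.34, SE 0.15, adjusted p = 0.213), and Col4a6 had the smallest fold change of the class (0.19, SE 0.16, adjusted p = 0.488). Col4a3 had means of 1.38 ± 0.39 FPKM in CT and 1.76 ± 0.21 FPKM in cMU. Col4a4, at the foot of the class, was at 0.555, 0.399, 0.558 and 0.591 FPKM in CT and 1.19, 0.638 and 0.805 FPKM in cMU (0.41, SE 0.17, adjusted p = 0.175). It was the type IV gene without overlap, at levels close to the minimum of 0.5 FPKM.

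All 6 type IV genes lie in head-to-head pairs on opposite strands. On GRCm38 the starts of Col4a1 and Col4a2 on chromosome 8 overlap by 22 bases, those of Col4a3 and Col4a4 on chromosome 1 lie 71 bases apart, and those of Col4a5 and Col4a6 on chromosome X lie 1308 bases apart. The library kit keeps the strand, but whether counting used it is not given in the sources used here, so reads at the Col4a1 and Col4a2 overlap may have been split between the genes, as may reads of Col18a1 with Slc19a1 and Col9a3 with Tcfl5. The whole stretch between Col4a4 and Col4a3, chr1:82586850-82586920 (GRCm38.p6, RefSeq, read on the minus strand toward Col4a4), is shown because it is the shortest such gap and serves both starts:
Col4a4: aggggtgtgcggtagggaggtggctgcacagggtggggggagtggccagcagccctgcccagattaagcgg
It holds none of the 3 motifs on either strand. Among the 71-base windows before all starts CCAAT was found in 13.3%, GGGCGG in 20.7% and TATAAA in 4.41%. The partners had log2 fold changes of 0.41 (Col4a4) and 0.29 (Col4a3), of 0.28 (Col4a1) and 0.33 (Col4a2), and of 0.34 (Col4a5) and 0.19 (Col4a6). No partner differed in direction.

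Type VI collagen, a microfibril that anchors cells to the surrounding matrix, was among the most abundant of the other types. Col6a1 was at 99.7, 60.5, 98.2 and 105 FPKM in CT and 230, 98.9 and 114 FPKM in cMU (log2 fold change 0.63, SE 0.29, adjusted p = 0.221; 0.0468 with the block). Col6a2 was at 56.9, 33.1, 57.5 and 66.6 FPKM in CT and 139, 61.8 and 67.7 FPKM in cMU (0.68, SE 0.31, adjusted p = 0.209; 0.0402 with the block). Col6a3 was at 8.70, 4.80, 5.02 and 6.63 FPKM in CT and 13.4, 6.86 and 6.80 FPKM in cMU (0.46, SE 0.26, adjusted p = 0.318; 0.0316 with the block). cMU 2 lay within the control range for each of these chains, and without cMU 1 their log2 fold changes were 0.26, 0.32 and 0.15. Col6a5 and Col6a6, which can take the place of the alpha3 chain, were near the minimum: Col6a6 had a log2 fold change of 0.36 (SE 0.17), and Col6a5 one of 0.07 (SE 0.30), which turned to -0.27 without cMU 1, to -0.02 after median centring and to -0.08 on the normalized counts.

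The 8 FACITs, which decorate the surface of fibrils, held both the largest differences among the collagens and the only lower gene outside the fibrillar class. Col14a1 was at 1.38, 0.561, 1.34 and 1.23 FPKM in CT and 8.45, 1.51 and 1.49 FPKM in cMU. Its groups did not overlap, yet the log2 fold change of 1.05 (SE 0.49, adjusted p = 0.228) was 0.33 without cMU 1. Col12a1 was at 14.5, 6.81, 14.4 and 15.5 FPKM in CT and 46.0, 15.8 and 19.7 FPKM in cMU (0.96, SE 0.38, adjusted p = 0.163; 0.0295 with the block), and at 0.51 without cMU 1. Here too the groups did not overlap, by 15.5 against 15.8 FPKM.

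Type IX collagen, a FACIT of 3 different chains that coats type II fibrils in cartilage, was unevenly expressed. Col9a3 was the most abundant FACIT gene, at 85.4, 91.5, 102 and 108 FPKM in CT and 88.6, 88.3 and 89.0 FPKM in cMU (log2 fold change -0.12, SE 0.08, adjusted p = 0.408). Col9a2 was at 34.5, 32.2, 42.1 and 49.8 FPKM in CT and 83.3, 45.1 and 52.3 FPKM in cMU (0.57, SE 0.21, adjusted p = 0.15), and Col9a1 had a fold change of 0.21 (SE 0.13). The mutant values of Col9a3 lay within the control range, and those of Col9a2 above it but for cMU 2. The remaining FACITs, Col16a1, Col20a1 and Col22a1, had log2 fold changes of 0.37, 0.15 and 0.30 with overlapping groups.

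The network-forming type VIII genes, known from vessel walls and Descemet's membrane of the cornea, were higher mainly in cMU 1. Col8a2 was at 10.7, 5.47, 14.1 and 12.6 FPKM in CT and 41.3, 10.6 and 15.3 FPKM in cMU (log2 fold change 0.87, SE 0.45, adjusted p = 0.263; 0.32 without cMU 1). Col8a1 had a log2 fold change of 0.50 (SE 0.32, adjusted p = 0.37; 0.0326 with the block). Among the transmembrane collagens, Col23a1 was at 16.7, 12.7, 16.8 and 16.4 FPKM in CT and 28.1, 18.8 and 18.9 FPKM in cMU, without overlap (0.46, SE 0.16, adjusted p = 0.129). Col25a1, a collagen needed for motor innervation of muscle, was at 2.96, 1.14, 4.01 and 3.55 FPKM in CT and 7.13, 2.79 and 6.06 FPKM in cMU, where cMU 2 lay below 3 controls (0.78, SE 0.38, adjusted p = 0.246, and 0.0251 with the block). Col13a1 followed with 0.39 (SE 0.16, adjusted p = 0.191).

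Types XV and XVIII, whose ends release endostatin-like fragments and which lie in basement membrane zones, did not pass the threshold. Col18a1 had means of 15.7 ± 2.22 FPKM in CT and 21.6 ± 6.87 FPKM in cMU (log2 fold change 0.41, SE 0.19, adjusted p = 0.215; 0.0473 with the block), and Col15a1 had a fold change of 0.21 (SE 0.22) with its highest value, 10.2 FPKM, in CT 1. Col26a1 was at 27.5, 24.9, 31.6 and 29.6 FPKM in CT and 57.2, 31.0 and 38.2 FPKM in cMU (0.52, SE 0.18, adjusted p = 0.131). Col7a1, the anchoring fibril collagen of epithelia, had a fold change of 0.19 (SE 0.12). Over the 22 other collagens 21 were higher, with a class median of 0.43.

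**Figure D3:**
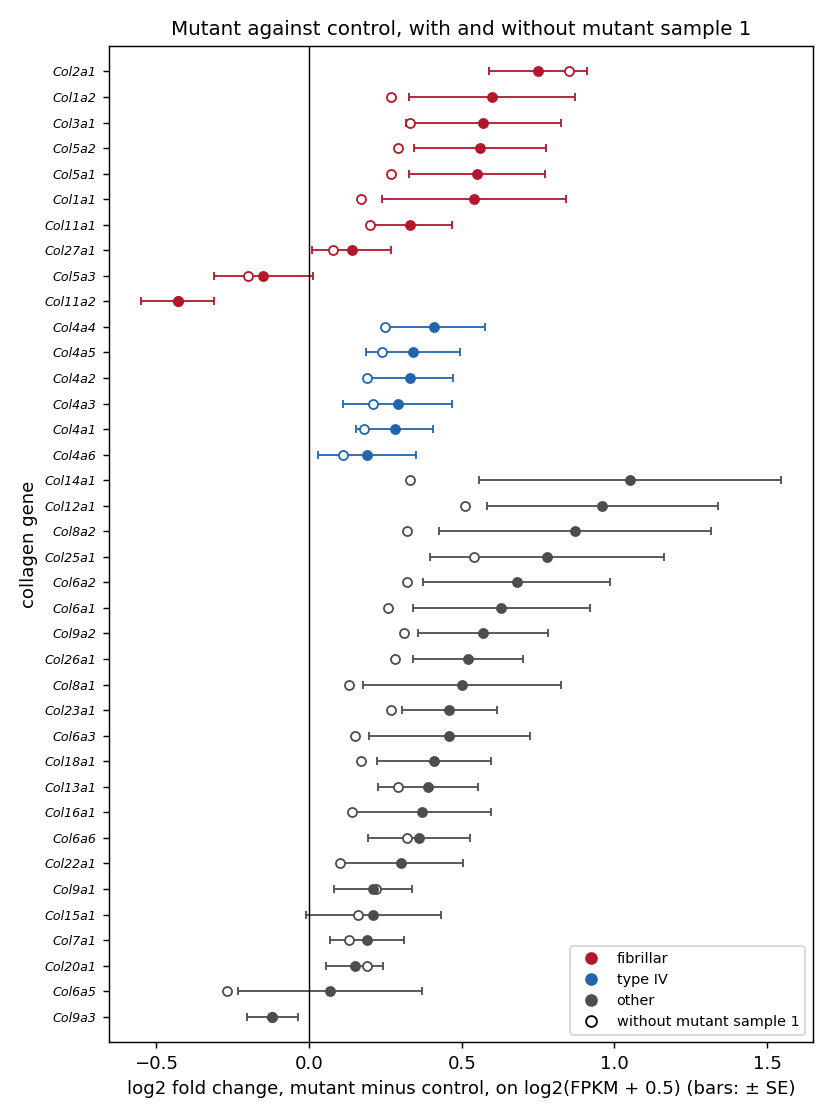
Log2 fold change of each collagen gene (filled points, bars ± SE, from all 7 samples) and the same without mutant sample 1 (open points), by class. Filled points of 35 genes lie right of 0, and most open points lie nearer to 0 than the filled ones. The open points of Col2a1, Col5a3, Col20a1 and Col9a1 lie farther out, and that of Col6a5 lies left of 0. Col11a2 and Col9a3 stay in place.

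The class medians stayed above 0 with any sample left out, and that of type IV stayed the lowest, but their size did not stay fixed. Fibrillar, type IV and other collagens had medians of 0.54, 0.31 and 0.43 with all samples, 0.24, 0.20 and 0.24 without cMU 1, and 0.39, 0.20 and 0.34 without CT 2. The difference between classes was thus small once cMU 1 was left out, when all 3 lay near 0.2, beside 0.03 for all genes tested. The difference between the classes was not tested.

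**Figure D4:**
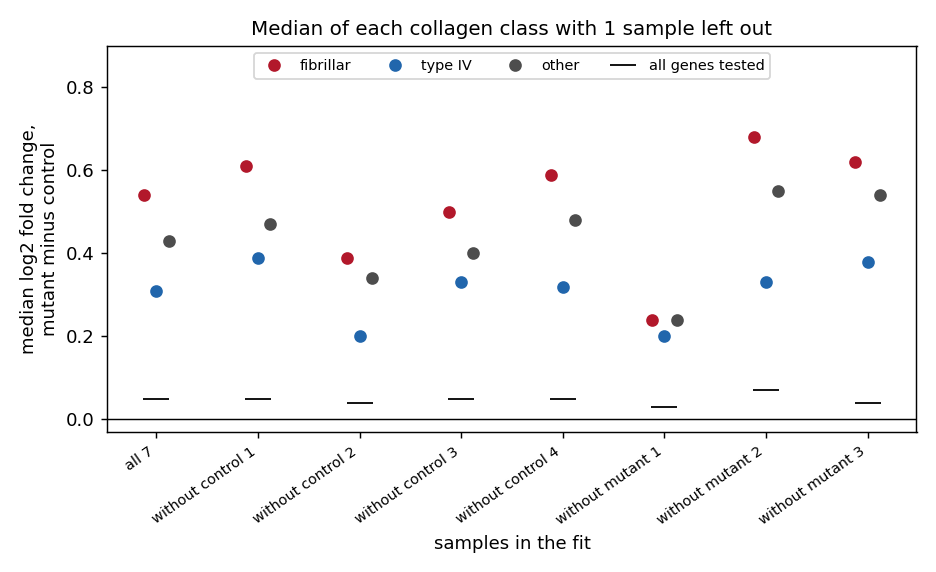
Median log2 fold change of the fibrillar, type IV and other collagens (colored points) and of all genes tested (black dashes) from all 7 samples and after leaving out any 1 of them. The 3 classes lie closest together, between 0.20 and 0.24, when mutant sample 1 is left out.

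Ratios between chains are free of any factor that scales a whole sample. They were formed for 14 pairs chosen with the data known, and are given as a description with no test. Col1a1 to Col1a2, chains of a single protein, stayed between 0.473 and 0.558 in CT and between 0.455 and 0.535 in cMU, even though the level of each varied over 3-fold between samples. Col4a1 to Col4a2 (0.735 to 0.800 and 0.716 to 0.780) and Col6a1 to Col6a2 (1.57 to 1.83 and 1.60 to 1.69) were as steady. In 3 of the 14 pairs the groups did not overlap. Among the levels of all genes tested, 12.9% lay above every control and 8.26% below, and no share was formed for other ratios. The ratio of Col11a2 to Col11a1 was 2.19, 3.64, 3.29 and 3.71 in CT and 1.51, 2.06 and 1.95 in cMU, that of Col9a2 to Col9a3 was 0.404, 0.352, 0.414 and 0.459 in CT and 0.940, 0.511 and 0.588 in cMU, and that of Col4a6 to Col4a5 was 0.373 to 0.393 in CT and 0.341 to 0.362 in cMU. The other type IX pair, Col9a1 to Col9a3, overlapped.

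Of the genes that make, bind, break down or accompany collagen, 1 of the 75 tested passed the threshold, where 1.26% of all genes were called higher. The counts of higher genes below stand beside 60.1% of all genes, and the genes passing with the block beside 6.42% of all genes called higher in that fit. Of the processing genes (prolyl and lysyl hydroxylases, chaperones, propeptide proteases, cross-linking oxidases), 27 of 30 were tested, 22 were higher and 5 lower, and the median log2 fold change was 0.23. Sparc, a collagen-binding matricellular protein that astrocytes and vessels also make, rose from 1088, 928, 995 and 996 FPKM in CT to 1625, 1298 and 1413 FPKM in cMU (0.53, SE 0.10, adjusted p = 0.0354). With a sample left out its adjusted p ran from 0.0272 to 0.122, below 0.05 only without cMU 2. It was 0.0544 on the normalized counts. P4hb, the beta subunit of prolyl 4-hydroxylase and also a general disulfide isomerase, was next in abundance, with a log2 fold change of 0.12 (SE 0.07, adjusted p = 0.287). With the block, Sparc, Pcolce, Lox, Adamts2 and P3h1 passed.

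None of the 10 tested collagen receptors passed, and 9 had a higher mean (median 0.40). Ddr1, a receptor tyrosine kinase that OLs express strongly, was the exception, at 295, 288, 330 and 366 FPKM in CT and 275, 286 and 264 FPKM in cMU, without overlap (log2 fold change -0.21, SE 0.09, adjusted p = 0.194). Itgb1, the shared beta chain of the collagen integrins, had a fold change of 0.05. Ddr2, the fibroblast counterpart of Ddr1, was at 19.0, 11.9, 19.3 and 17.3 FPKM in CT and 39.7, 21.4 and 25.1 FPKM in cMU (0.73, SE 0.22, adjusted p = 0.103; 0.0261 with the block, where Mrc2, a collagen uptake receptor, also passed). Ddr1 and Ddr2 thus differed in direction.

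Among 11 tested proteases and inhibitors of collagen turnover 9 were higher and none passed (median 0.31). The most abundant were the inhibitors Timp3 (0.46, SE 0.17, adjusted p = 0.141) and Timp2 (0.31, SE 0.10, adjusted p = 0.103), and with the block both of these, Mmp14 and Reck passed. All 14 tested proteoglycans and glycoproteins of fibrils were higher and none passed (median 0.53), led in abundance by Fmod (0.63, SE 0.20, adjusted p = 0.112) and Fn1 (0.63, SE 0.28, adjusted p = 0.204), and 8 passed with the block. Of 13 tested laminins, nidogens and other basement membrane proteins 12 were higher and none passed (median 0.35), led by Lamb2 (0.52, SE 0.26, adjusted p = 0.244) and Lamc1 (0.17, SE 0.13, adjusted p = 0.447), and Lama2, Lama4, Lamb2 and Nid1 passed with the block. Without cMU 1 the medians of the 5 lists, in the order given, were 0.12, 0.28, 0.23, 0.29 and 0.19.

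The sample medians of fibroblast markers stood in the same order as those of the collagens, but not at the same size. Relative to the control mean, cMU 3 was at 0.54 on the log2 scale for the markers and 0.23 for the collagens. All 15 meningeal and perivascular fibroblast markers were higher in cMU, none past the threshold and 10 with the block (where 6.42% of all genes were called higher). Their median log2 fold change was 0.66 (0.38 without cMU 1). Their summed level was 2244, 1823, 2197 and 2218 FPKM in CT and 4618, 2334 and 2869 FPKM in cMU. cMU 1 held the highest value in 15 of the 15 and CT 2 the lowest in 14. The most abundant were Igf2 (0.50, SE 0.20, adjusted p = 0.166), a growth factor of the meninges, and Mgp (0.66, SE 0.30, adjusted p = 0.211), an inhibitor of calcification. The list shares Dcn, Lum and Ogn with the fibril-associated list. The part of fibroblast content in the collagen values was not tested.

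With all samples, vessel markers differed less than fibroblast markers, with median log2 fold changes of 0.27 (endothelial) and 0.20 (mural). Without cMU 1 these medians were 0.31 and 0.23, beside 0.38 for the fibroblast markers and 0.22 for the collagens. The sum of the 10 endothelial markers was 189 to 223 FPKM in CT and 234 to 262 FPKM in cMU, and that of the 10 mural markers 291 to 400 and 386 to 556 FPKM, with all 20 genes higher and none past the threshold. With the block, 2 of each list passed, beside 6.42% of all genes called higher, and 3 mural genes were lower. The endothelial sum was highest in cMU 2 and the mural sum in cMU 1. Ly6c1 and Slco1a4 were the most abundant endothelial markers (0.11 and 0.39), and Vtn and Rgs5 the most abundant mural ones (0.62 and 0.14). Their part was not tested.

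Astrocyte markers were higher in cMU and OL lineage markers lower. The genes past the threshold stand beside 1.26% of all genes called higher and 188 of 13866 called lower. Those passing with the block stand beside 6.42% called higher and 269 of 13866 called lower. The 8 astrocyte markers summed to 2575 to 2942 FPKM in CT and 3268 to 3956 FPKM in cMU, with Aldoc, Gja1 and Aldh1l1 past the threshold (6 of 8 with the block) and cMU 1 the lowest of the mutants. The 7 OL markers summed to 33932 to 40974 FPKM in CT and 24979 to 31188 FPKM in cMU (all 7 lower, Cnp and Mag past the threshold, with adjusted p = 0.0605 and 0.0726 by limma with the block), and the 7 OL progenitor markers to 353 to 406 and 259 to 300 FPKM (all lower, Gpr17 and Cspg4 past the threshold, and 3 genes with the block). Microglia markers, at 293 to 355 and 332 to 374 FPKM, overlapped. Mbp, which encodes a major protein of compact myelin, was the most abundant gene among the marker lists.

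Markers of tissues that could have come along with the nerve were mostly low. Cartilage markers, of interest for Col2a1 and the type IX and XI genes, summed to 26.8 to 30.0 FPKM in CT and 23.1 to 30.6 FPKM in cMU, nearly all of it Lect1 (log2 fold change -0.27, SE 0.11). Of the 6 listed, Acan and Matn3 were below the minimum, and 4, Matn1 and Comp among them, were tested. Of these 4, 2 were higher and 2 lower in cMU (median 0.19). None passed the threshold, and 1 was called higher with the block, beside 6.42% of all genes. Hapln1, a link protein of cartilage and also of brain matrix, was at 0.701 to 1.26 FPKM in CT and 1.29 to 2.99 FPKM in cMU. The retina, pigment cell and lens markers (2.73 to 3.03 and 2.51 to 3.58 FPKM) and the Schwann cell markers (11.4 to 15.3 and 12.3 to 17.1 FPKM) summed to low and overlapping levels. Skeletal muscle markers summed to 99.6 FPKM in cMU 2, led by Mylpf at 24.9 FPKM, to 5.26 and 7.30 FPKM in cMU 1 and cMU 3 and to 3.43 to 4.44 FPKM in CT. The part of these tissues in the collagen values was not tested.

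**Figure D5:**
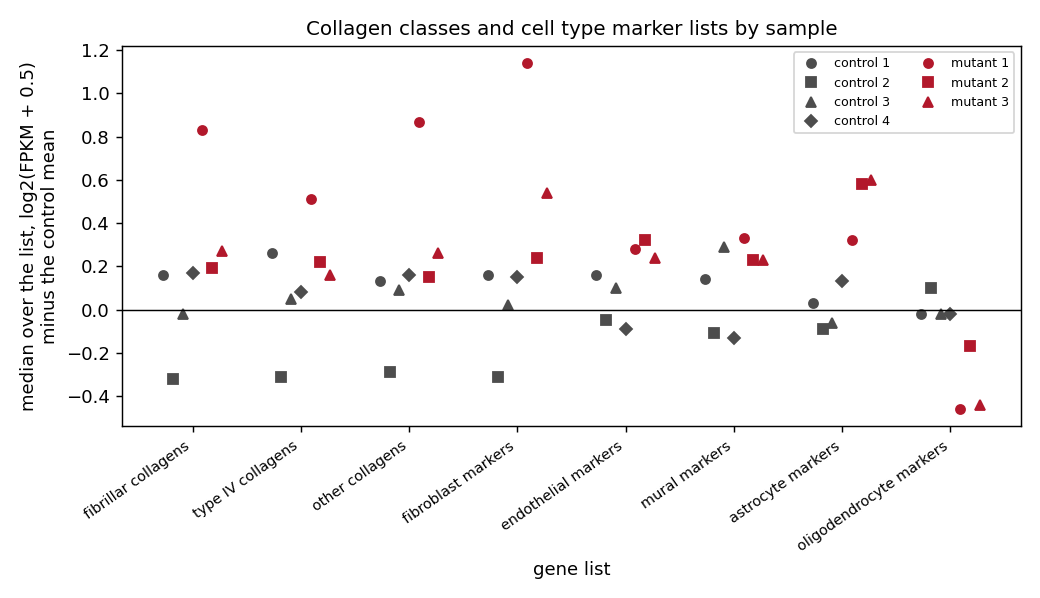
Median over each gene list of log2(FPKM + 0.5) minus the control mean, for the 3 collagen classes and 5 cell type marker lists (x axis), with a point for each sample (gray for control, red for mutant). The order of samples for fibroblast markers resembles that of the collagens, with mutant sample 1 highest and control sample 2 lowest, while astrocyte markers are lowest among the mutants in mutant sample 1 and OL markers are below 0 in all mutant samples.

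The 6 collagen genes under the minimum were Col24a1, Col28a1, Col17a1, Col10a1, Col6a4 and Col19a1, none of which reached 0.5 FPKM in any sample. Just outside were Col24a1 (0.0835 to 0.388 FPKM) and Col28a1 (0.121 to 0.370 FPKM), and just inside were Col6a5, which met the minimum in 2 samples of each group, and Col4a4 and Col6a6, which met it in 3 of each. No gene entered through the mutant samples alone. Col10a1, the hypertrophic cartilage collagen, was listed at 0 in all 4 controls and at no more than 0.0931 FPKM in cMU.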

How the data were processed

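Poly(A) RNA of whole optic nerves from 4 CT and 3 cMU mice was sequenced by the authors from stranded libraries, single end. The submitters' processing notes name STAR 2.5.1b, RSEM 1.2.22, edgeR and GRCm38. Whether counting used the strand is not given in the sources used here. The deposited table holds, per gene and sample, FPKM, which was used throughout, and a normalized count, a signal scaled between samples by the authors. It also holds the GC content as a fraction (gene properties only) and the authors' own log2 ratio, p-value and FDR of the comparison, which were not used.

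Reads were recovered from the steps of the deposited normalized counts and 73.4% to 78.5% of low values came out whole (tolerance 0.02). Recovered totals were 27457173 to 43460412 reads per sample. Since not all values are whole, FPKM was the main measure. The smallest two-sided exact permutation p of 4 against 3 samples is 0.0571, so single values were not tested alone. Replicates are separate mice, and no pair agreed within sampling noise (median chi-square per gene 2.09 to 5.72, where 1 degree of freedom applies).

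The test covered genes reaching 0.5 FPKM in 3 or more samples, on log2(FPKM + 0.5) with limma 3.58.1 (R 4.3.3; linear model, trended empirical Bayes, Benjamini-Hochberg over all 13866 genes, threshold 0.05). Fold changes are on that scale, which understates low genes. The fits were tested on simulated data. Alternatives were other pseudocounts (0.1, 1), filters and scalings, the normalized counts, edgeR 4.0.16 and DESeq2 1.42.0 on the recovered reads, each sample left out and the replicate number as a block. Samples with the same number had correlated deviations across genes (0.168, 0.409 and 0.270 for numbers 1 to 3), by which they were taken as paired. The source of the pairing is not stated, and CT 4 correlated with cMU 1 at 0.205. The block without cMU 1 or CT 2 was added after seeing the data.

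The members, classes, pathway and marker lists were chosen with earlier results of these data known. Values by sample are given for members past the threshold, types I, III, V, the main IV and VI chains and the extremes of each class. From each further list the genes past the threshold and the most abundant pair are named. Other genes named in the text were chosen after their values were seen. A gene of the OL marker list is not reported here and was left out of its counts and sums.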

Additional observations from a re-analysis of the deposited data

Results flagged for a closer look

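In 43 genes and sums checked for a control sample far from the other 3, CT 2 was the lowest and stood apart in Col12a1 (6.81 FPKM, against 14.4 to 15.5 FPKM in the other controls), Col23a1 (12.7 FPKM, against 16.4 to 16.8 FPKM) and Col6a1 (60.5 FPKM, against 98.2 to 105 FPKM). By chance about 1 in 20 such groups would be marked. The same sample held the highest red blood cell marker sum, and the part of this in the collagen values was not tested.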

How the results depend on the processing

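The count of collagens past the threshold (1 of 38, a fibrillar gene) was 0 without the filter on low values, after median centring, with TMM factors, on the normalized counts and by edgeR, where fibrillar genes also gave 0. DESeq2 gave 6 (2 fibrillar, 1 type IV, 3 other; Col2a1, Col26a1, Col9a2, Col23a1 and Col4a4 higher, Col11a2 lower) beside 1682 of all genes, and 17 pathway genes. All genes past the threshold numbered 95 without the filter. The pathway count, 1 in the main analysis, was 0 without the filter and on the normalized counts and 2 with the stricter filter of 1 FPKM in 4 samples. Normalized counts called 103 genes higher and 267 lower, and edgeR 162 and 238.

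With the replicate block, all genes past the threshold numbered 1159, collagens 13 (6 fibrillar, 7 other) and pathway genes 23. Without cMU 1 the blocked counts were 1305, 16 (7 fibrillar, 1 type IV, 8 other) and 24, and without CT 2 all genes numbered 107. The block changed no other call of a collagen gene or of Fasn.

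With each sample left out, the ranges were 6 to 907 for all genes, 0 to 2 for collagens, 0 to 1 for fibrillar and for other collagens, 0 to 5 for pathway genes and 0.24 to 0.68 for the fibrillar median. Only without cMU 2 did any collagen pass. Col6a5 changed sign after median centring (-0.02), on the normalized counts (-0.08), without CT 3 (-0.04), without cMU 1 (-0.27, where the other single omissions reached 0.39, without cMU 2) and in the block without cMU 1 (-0.12), and Col15a1 did so in the block without CT 2 (-0.09). The cause was not tested. Each class median stayed above 0 in every alternative run. Depth limits the genes near 0.5 FPKM.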
